A study of Mus with 6 samples.

Results

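The 10 genes described here encode proteins that coat lipid droplets, fill them with triglyceride or cholesteryl ester, or empty them. They were chosen by name, as Plin2, Plin3, Hilpda, Dgat1, Dgat2, Soat1, Abhd5, Pnpla2, Lipe and Mgll, and all 10 were found once each among the 10995 protein-coding genes of the table. RNA-Seq was performed on wild-type mouse CD4+ T cells from the spleen, in 3 libraries treated with anti–VEGF-B, an antibody that neutralizes this growth factor, and 3 treated with goat IgG as control, each at 1 μg/mL. The cells of both groups had been isolated as naive T cells. Stimulation lasted 3 days and used 5 μg/mL of a CD3 antibody, 2 μg/mL of a CD28 antibody and 100 U/mL of IL-2. The number and age of the mice and whether the libraries came from separate cultures were not given in the sources used here, so that p-values measure the spread between these libraries, which may be technical. The cells were a bulk population, and lower RNA per cell cannot be told apart from fewer cells that express a gene.

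A lipid droplet is a store of neutral lipid under a single layer of phospholipid. It is filled by acyltransferases that add the last fatty acid to diacylglycerol or to cholesterol, and it is emptied by a chain of lipases that release fatty acids from triglyceride one after another. Perilipins on the surface and small regulators of the first lipase set how fast this happens. Activated T cells build new membrane from fatty acids, and droplets hold fatty acids that are not yet used or are in excess.

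The deposited values were FPKM, fragments scaled for transcript length and for the number mapped in the library, so that levels of different genes can be compared. The FPKM of a library summed to between 260058 and 276622. The number of reads is unknown. The SD given is the spread between libraries, and the standard errors and intervals rest on that spread as moderated by limma across genes. Genes that averaged 1 FPKM or more were tested, 8816 in all, and 28.7% of them passed limma at an adjusted p under 0.05 (Benjamini-Hochberg), 23.8% being lower and 4.87% higher with anti–VEGF-B. The median log2 fold change of these genes was -0.15. All 8 CD4+ T cell markers were listed and summed to 583 to 610 FPKM with anti–VEGF-B and to 570 to 638 with IgG, and Cd3e and Cd5 among them were lower. Of the 6 B cell, 4 NK cell and 5 adipocyte markers looked for, the table listed 1, 1 and 0. Both CD8+ T cell markers were listed, Cd8b1 at a mean of 3.63 FPKM and Cd8a at 0.0720. They summed to 3.32 to 4.69 FPKM with anti–VEGF-B and to 2.29 to 4.21 with IgG. The 4 of 7 myeloid markers listed summed to 11.5 to 12.5 FPKM with anti–VEGF-B and to 12.7 to 30.3 with IgG, the highest value being that of IgG replicate 3.

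Neutralizing VEGF-B moved the 2 perilipin genes in opposite directions. Plin2 rose by 26.6% and Plin3 fell by 38.2%, and these were the only members past the test of 9 tested, a share of 2 in 9 beside 28.7% of all genes. The genes of both diacylglycerol acyltransferases and Hilpda had higher values in all 3 anti–VEGF-B libraries than in any IgG library, but did not pass. Abhd5 and Soat1 had lower values in every anti–VEGF-B library and did not pass either, while the groups of Pnpla2, Lipe and Mgll overlapped. Counted over the 9 tested members, the groups lay apart for 7 (49.0% of all genes tested), with higher values for 4 (10.5%) and with lower values for 3 (38.5%). The median log2 fold change of the 9 members was -0.17, close to that of all genes.

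**Figure D1:**
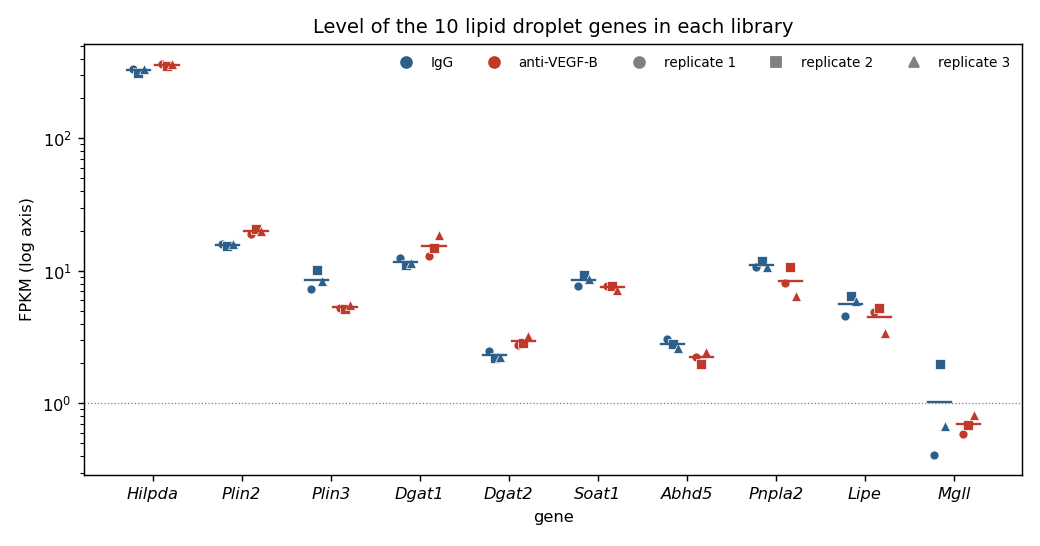
FPKM of each of the 10 genes (x axis) on a log axis (y axis), with 1 point per library, IgG in blue, anti–VEGF-B in red, a symbol per replicate number and a bar at the mean of 3 libraries. Hilpda was at 312 FPKM or more in all libraries and Mgll, below the dotted line at 1 FPKM in 5 of 6, was the lowest member.

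The levels of the members spanned a wide range. Hilpda was far above the others in both groups, at 325 ± 11.8 FPKM with IgG (SD, n = 3), and 132 genes of the table had a higher mean over the 6 libraries. In IgG libraries it was followed by Plin2 and by Dgat1 and Pnpla2, whose ranges overlapped. Next came Soat1 and Plin3, which also overlapped each other, then Lipe, Abhd5 and Dgat2, with Mgll last. With anti–VEGF-B, Dgat1 no longer overlapped with Pnpla2, whose range took in that of Soat1, and Plin3 overlapped with Lipe. Abhd5 and Dgat2 exchanged places, at 2.22 and 2.94 FPKM with anti–VEGF-B against 2.81 and 2.30 with IgG. Within a group, the coefficient of variation was lowest for Hilpda with anti–VEGF-B (1.77%) and highest for Mgll with IgG (82.6%), where the median over all genes tested was 9.12% with anti–VEGF-B and 10.6% with IgG.

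Perilipins cover the droplet and limit the access of lipases. Plin2 (chromosome 4 of GRCm38, 86648386 to 86670060, minus strand) encodes the perilipin that stays bound to droplets in most cell types and is degraded when it is not. It was at 19.1, 20.8 and 19.97 FPKM in the anti–VEGF-B libraries and at 15.9, 15.4 and 15.98 in the IgG libraries. All 3 values with anti–VEGF-B were above all 3 with IgG, and the libraries of each group lay close together. The log2 fold change of FPKM + 1 was 0.32 (standard error 0.075, 95% interval 0.15 to 0.49, adjusted p = 0.0162 from limma), and 4.54% of all genes tested had a larger positive difference. Without anti–VEGF-B replicate 3 the adjusted p of Plin2 was 0.0593 at a log2 fold change of 0.32, and alternatives gave between 0.00641 and 0.0693.

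Plin3 (chromosome 17, 56278962 to 56290511, minus strand) encodes a perilipin that is soluble in the cytosol and moves onto young, small droplets. It was at 5.22, 5.14 and 5.52 FPKM with anti–VEGF-B and at 7.28, 10.1 and 8.34 with IgG. The IgG libraries were all higher and spread more widely than the anti–VEGF-B libraries. The log2 fold change of Plin3 was -0.59 (standard error 0.117, 95% interval -0.86 to -0.33, adjusted p = 0.0101 from limma), the largest difference of the 9 tested members. Plin3 was also the only member past an absolute log2 fold change of 0.5 together with an unadjusted p under 0.05, limits that 12.7% of genes passed. Alternatives gave an adjusted p between 0.00959 and 0.0791. The highest value, as for Plin2, came when the variance was not moderated (0.0791 for Plin3 and 0.0693 for Plin2).

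Hilpda (chromosome 6, 29272488 to 29275446, plus strand) encodes a small droplet protein that is induced by hypoxia and by fatty acids and inhibits ATGL, the first lipase of triglyceride breakdown. Its FPKM were 361, 354 and 367 with anti–VEGF-B and 332, 312 and 332 with IgG. The groups did not overlap, but the difference was small, at 1.11 times the IgG mean. The log2 fold change was 0.15 (95% interval -0.005 to 0.30, adjusted p = 0.126 from limma), which did not pass.

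**Figure D2:**
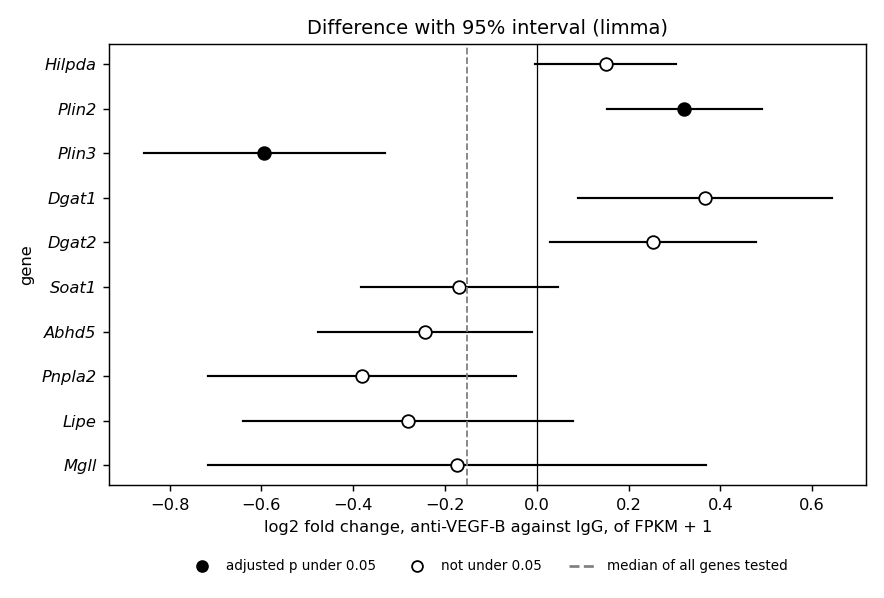
Anti–VEGF-B against IgG as log2 fold change of FPKM + 1 (x axis) for each gene (y axis) with its 95% interval from limma, filled where the adjusted p was under 0.05. Plin2 and Plin3 passed on opposite sides of 0, and the dashed line marks the median of all genes tested at -0.15 (Mgll, under the filter, is from the fit of all listed genes).

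The last step of triglyceride synthesis is carried out by a pair of unrelated enzymes in the endoplasmic reticulum, DGAT1, which mostly uses fatty acids from outside or released by lipolysis, and DGAT2, which also works on the droplet itself and mostly uses newly made fatty acids. Dgat1 (chromosome 15, 76502015 to 76511951, minus strand) was at 13.02, 14.9 and 18.6 FPKM with anti–VEGF-B and at 12.6, 11.2 and 11.4 with IgG. The groups lay apart, but by little at their nearest values, and anti–VEGF-B replicate 3 stood above the other two. Dgat1 had a log2 fold change of 0.37 (standard error 0.123, 95% interval 0.090 to 0.64, unadjusted p = 0.0149, adjusted p = 0.0512 from limma). It was 0.24 without anti–VEGF-B replicate 3 (adjusted p = 0.165) and 0.48 without anti–VEGF-B replicate 1 (adjusted p = 0.0328).

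Dgat2 (chromosome 7, 99153658 to 99182719, minus strand) was at 2.77, 2.85 and 3.21 FPKM with anti–VEGF-B and at 2.46, 2.20 and 2.25 with IgG. It was thus several times lower than Dgat1 in each library, and again the groups did not overlap and anti–VEGF-B replicate 3 was the highest. Dgat2 had a log2 fold change of 0.25 (standard error 0.0995, 95% interval 0.029 to 0.48, unadjusted p = 0.0306, adjusted p = 0.0822 from limma). Both acyltransferase genes passed once the libraries were brought to a common distribution, as given with the scalings.

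Soat1 (chromosome 1, 156424525 to 156474331, minus strand) encodes an enzyme that esterifies cholesterol for storage in droplets. It was at 7.69, 7.68 and 7.11 FPKM with anti–VEGF-B and at 7.74, 9.33 and 8.62 with IgG. Every anti–VEGF-B value was below every IgG value, though the nearest of them differed in the second decimal. Soat1 had a log2 fold change of -0.17 (95% interval -0.38 to 0.046, adjusted p = 0.200 from limma), close to the median of all genes.

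Triglyceride breakdown starts with ATGL, encoded by Pnpla2, which needs the coactivator CGI-58, encoded by Abhd5. Abhd5 (chromosome 9, 122351608 to 122381524, plus strand) was at 2.25, 2.00 and 2.42 FPKM with anti–VEGF-B and at 3.03, 2.81 and 2.59 with IgG. The groups lay apart, with a log2 fold change of -0.24 (95% interval -0.48 to -0.010, unadjusted p = 0.0426, adjusted p = 0.103 from limma) that did not pass. Measured from the median over the table, Abhd5 differed by -0.092.

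Pnpla2 (chromosome 7, 141455198 to 141460743, plus strand) was at 8.10, 10.7 and 6.48 FPKM with anti–VEGF-B and at 10.6, 11.9 and 10.8 with IgG. The IgG libraries were alike, whereas the anti–VEGF-B libraries ranged from well below them to within their range. Pnpla2 had a log2 fold change of -0.38 (standard error 0.149, 95% interval -0.72 to -0.046, unadjusted p = 0.0299, adjusted p = 0.0809 from limma), which did not pass. The overlap rested on anti–VEGF-B replicate 2, without which the log2 fold change was -0.55 (adjusted p = 0.0264 from limma), while without anti–VEGF-B replicate 3 it was -0.23 (adjusted p = 0.250).

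Lipe (chromosome 7, 25379527 to 25398710, minus strand) encodes hormone-sensitive lipase, which cleaves diacylglycerol and cholesteryl esters. Its FPKM were 4.85, 5.27 and 3.38 with anti–VEGF-B and 4.56, 6.49 and 5.92 with IgG. The groups overlapped, with the lowest value again in anti–VEGF-B replicate 3, and the log2 fold change was -0.28 (95% interval -0.64 to 0.078, adjusted p = 0.202 from limma). It was -0.13 without anti–VEGF-B replicate 3 (adjusted p = 0.572) and -0.40 without IgG replicate 1 (adjusted p = 0.0945 from limma). In RefSeq's annotation of GRCm38.p6 the noncoding gene 4732471J01Rik covers all 19184 bases of Lipe, so reads of both could have been counted together unless strand was used.

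Mgll (chromosome 6, 88724412 to 88828360, plus strand) encodes monoacylglycerol lipase, the last enzyme of the chain. With a mean of 0.860 FPKM it was under the filter, and it overlaps the noncoding gene Gm26588 over 18180 bases. It was at 0.590, 0.687 and 0.819 FPKM with anti–VEGF-B and at 0.405, 1.98 and 0.674 with IgG. The IgG values were spread on both sides of the anti–VEGF-B values, and IgG replicate 2 alone was above 1 FPKM. In the fit of all listed genes the log2 fold change of Mgll was -0.17 (95% interval -0.72 to 0.37, adjusted p = 0.602 from limma), and it was 0.15 without IgG replicate 2 (adjusted p = 0.378). A difference in Mgll was therefore not detectable at this spread.

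An unadjusted p under 0.05 was reached by 6 of the 9 tested members, namely Plin2, Plin3, Dgat1, Dgat2, Pnpla2 and Abhd5, beside 43.2% of all genes. Among these, Plin2, Dgat1 and Dgat2 were higher with anti–VEGF-B, a direction taken by 7.96% of all genes at this limit, against 35.2% in the other. With 3.50% of genes above Dgat1, 4.54% above Plin2, 6.79% above Dgat2 and 13.3% above Hilpda, the differences of these 4 members stood in the upper part of all genes tested. Those of Soat1, Abhd5, Lipe and Pnpla2 stood among the middle and lower genes, with 52.1% to 79.2% of genes above them, and Plin3 had 93.1% above it.

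The ratio of the FPKM of a pair of genes within a library does not depend on a factor between libraries. A shift that varies with the level of a gene does not cancel in it. The median log2 fold change was -0.15 over genes averaging 1 FPKM or more and -0.090 over those averaging 5 or more. Differences were tested on log2 ratios of FPKM + 1, in which a common factor cancels less well for low genes. They are also given without a pseudocount, an alternative chosen after seeing the data. FPKM of Plin2 divided by those of Plin3 gave 3.66, 4.05 and 3.62 with anti–VEGF-B and 2.19, 1.53 and 1.92 with IgG. The ratio of the perilipins thus lay apart between the groups, with a difference of 0.91 in the mean log2 ratio of FPKM + 1 (1.02 without a pseudocount), far above the SD of 0.234 with IgG and 0.081 with anti–VEGF-B. The two-sided exact permutation test gave p = 0.1, the smallest that 3 against 3 allow (adjusted p = 0.233 over the 7 ratios computed, exact tests).

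The ratio of Hilpda, the ATGL inhibitor, to Pnpla2 was 44.6, 33.1 and 56.7 with anti–VEGF-B and 31.2, 26.3 and 30.8 with IgG, a difference of 0.53 in mean log2 ratio of FPKM + 1 (0.57 without a pseudocount) without overlap (exact permutation p = 0.1, adjusted p = 0.233). Dgat1 to Soat1, 1 gene each of triglyceride and of cholesteryl ester synthesis, was 1.69, 1.94 and 2.62 with anti–VEGF-B and 1.62, 1.196 and 1.32 with IgG. The difference was 0.54 on this scale (0.58 without a pseudocount), without overlap (exact permutation p = 0.1, adjusted p = 0.233). Dgat2 and Soat2 do not enter this ratio. All 3 ratios were higher in each anti–VEGF-B library than in any IgG library, though the nearest values of the last 2 were close. Ratios were not computed after scaling. As deposited, Hilpda had a log2 fold change of 0.15 and Pnpla2 of -0.38. These were 0.16 and -0.23 after quantile normalization and 0.060 and -0.23 after cyclic loess, so the gap between them was smaller.

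For the other 4 pairs the groups overlapped, and no difference in ratio was detectable at this spread. Dgat1 to Dgat2, the pair of triglyceride synthesis, was 4.71, 5.23 and 5.80 with anti–VEGF-B and 5.11, 5.07 and 5.05 with IgG. The IgG libraries were within a narrow range, and the difference in mean log2 ratio was 0.11 for FPKM + 1 (exact permutation p = 0.4, adjusted p = 0.583) and 0.042 without a pseudocount. Leaving out 1 library moved it between 0.030, without anti–VEGF-B replicate 3, and 0.19, without anti–VEGF-B replicate 1.

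Among the lipolysis genes, the difference in mean log2 ratio of FPKM + 1 was 0.14 for Abhd5 to Pnpla2, 0.10 for Lipe to Pnpla2 and -0.21 for Pnpla2 to Mgll (exact permutation p of 0.5 to 0.6), and without a pseudocount it was 0.083, 0.085 and -0.19. Single libraries decided these values. Without 1 library, Abhd5 to Pnpla2 ran from -0.062 (anti–VEGF-B replicate 3 left out) to 0.36 (anti–VEGF-B replicate 2 left out). Lipe to Pnpla2 ran from 0.0035 (IgG replicate 1 left out) to 0.17 (anti–VEGF-B replicate 2 left out), and Pnpla2 to Mgll from -0.48 (IgG replicate 2 left out) to -0.0016 (anti–VEGF-B replicate 3 left out).

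**Figure D3:**
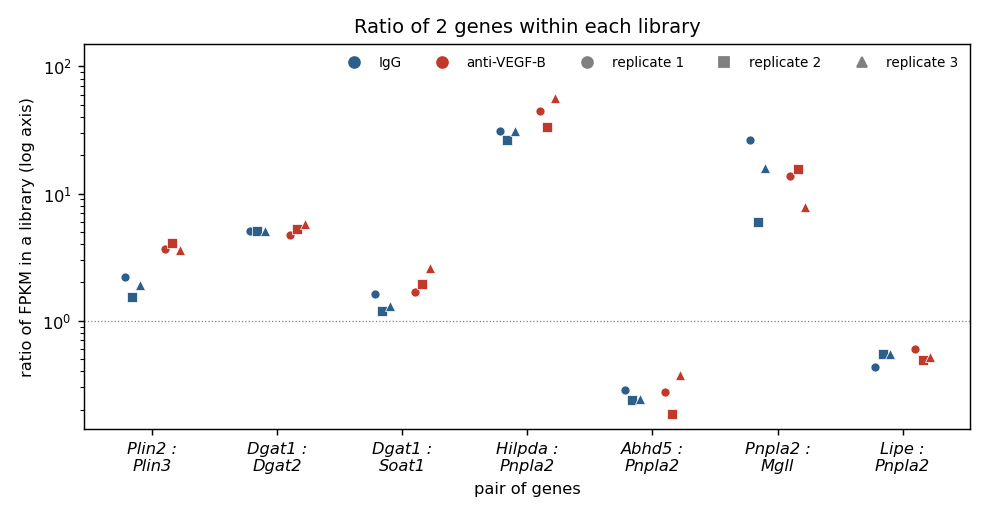
Ratio of the FPKM of 2 genes in each library (y axis, log scale) for the 7 pairs (x axis), IgG in blue and anti–VEGF-B in red with a symbol per replicate number. Plin2 to Plin3, Dgat1 to Soat1 and Hilpda to Pnpla2 were higher in all anti–VEGF-B libraries, and the other 4 ratios overlapped.

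As 71.2% of all tested genes had lower values with anti–VEGF-B, the members were compared again after scaling. With quantile normalization, the median difference over the table became 0.0077 on the log2 scale, and 50.9% of the called genes were on the lower side in place of 83.03%, where cyclic loess left 52.4% and median centring 37.2%. After quantile normalization, Dgat1 (log2 fold change 0.50, adjusted p = 0.0390 from limma) and Dgat2 (0.49, adjusted p = 0.0169) passed beside Plin2 (0.42, adjusted p = 0.0135) and Plin3 (-0.41, adjusted p = 0.0235). The 3 higher members then stood beside 9.98% of all genes called higher, and the 1 lower member beside 10.4% called lower. The same 4 members passed after cyclic loess, where 9.66% of all genes were called higher and 10.6% lower. They also passed after median centring, which added Hilpda (0.35, adjusted p = 0.0399 from limma) and called 15.5% of all genes higher and 9.15% lower. When FPKM were scaled to Actb, a cytoskeletal gene, only Plin2 (0.39, adjusted p = 0.0375 from limma) and Plin3 (-0.53, adjusted p = 0.0155) passed, beside 4.14% of all genes called higher and 14.8% lower. Actb itself was at 541, 461 and 468 FPKM with anti–VEGF-B and at 501, 529 and 507 with IgG. Its own spread enters the values scaled to it.

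Abhd5, Pnpla2 and Lipe did not pass under any of these scalings, nor did Mgll in the fit of all listed genes. Abhd5 came to -0.0083 after quantile normalization, Lipe to -0.071 and Pnpla2 to -0.23, and Soat1 was above 0 after median centring (0.032). Plin2, Dgat1, Dgat2 and Hilpda were above 0 and Plin3, Pnpla2, Lipe and Abhd5 below 0 under every scaling run, whether or not they passed.

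**Figure D4:**
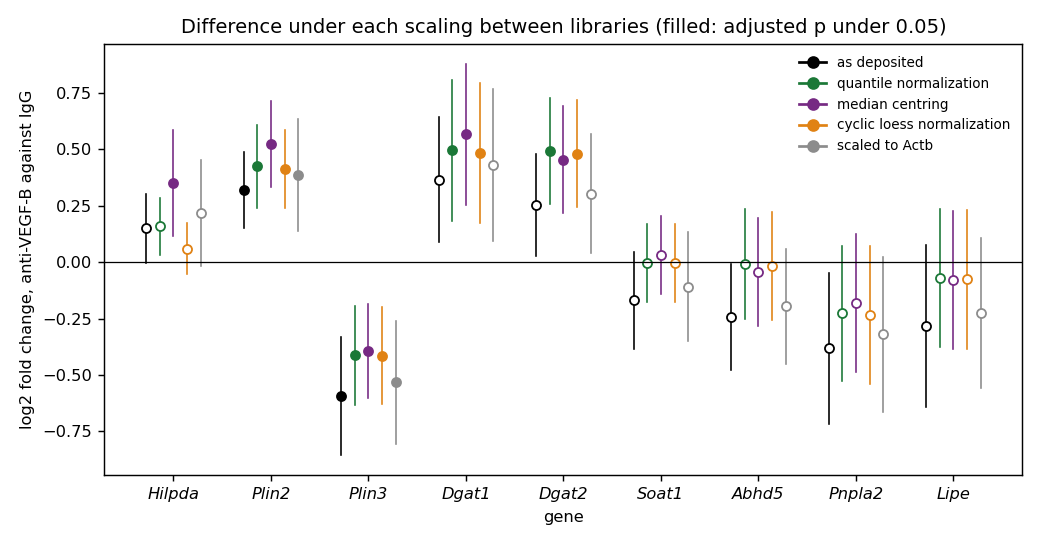
Anti–VEGF-B against IgG as log2 fold change (y axis) with its 95% interval for the 9 tested genes (x axis) under the deposited scale and 4 scalings between libraries, filled where the adjusted p from limma was under 0.05. Plin2 and Plin3 passed in all 5, and Dgat1 and Dgat2 in 3 of them.

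The libraries did not contribute alike. IgG replicate 2 was the IgG library farthest from the anti–VEGF-B mean for 9 of the 10 members, as it was for 63.5% of all genes tested, and Abhd5 was the exception. On the other side, anti–VEGF-B replicate 3 was farthest from the IgG mean for 6 members, beside 45.6% of all genes. Without IgG replicate 2, Plin2 (0.31, adjusted p = 0.0427 from limma) and Plin3 (-0.48, adjusted p = 0.0205) still passed, as they did without IgG replicate 3, in which the myeloid gene Lyz2 was at 16.4 FPKM against 3.26 to 4.19 in the other libraries (0.33, adjusted p = 0.0394, and -0.61, adjusted p = 0.0239).

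The table held further genes of droplets and neutral lipid, taken from lists written from general knowledge. The counts called in these lists stand beside 23.8% of all genes tested called lower and 4.87% called higher on the deposited scale. Of 9 other lipid droplet proteins tested, Faf2, which recruits the machinery that extracts proteins from the droplet surface, was lower (log2 fold change -0.70, adjusted p = 0.0176 from limma) and the other 8 did not pass. Bscl2, the seipin gene needed for droplet formation, named after its values were seen, was at 6.20 ± 0.497 FPKM in IgG libraries and 6.13 ± 0.244 in those given anti–VEGF-B (SD, n = 3 each).

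Of 13 tested genes of glycerolipid and sterol ester synthesis, 2 were lower, beside 23.8% of all genes. They were Agpat2 (-0.46, adjusted p = 0.0201 from limma) and Agpat3 (-0.44, adjusted p = 0.0321), which add the second fatty acid. None of the 13 was higher by the same test, beside 4.87% of all genes. Gpat3, of the first acylation step and named after its values were seen, was at 4.91, 4.15 and 4.04 FPKM with anti–VEGF-B and at 3.43, 3.14 and 3.69 with IgG, without overlap (0.28, unadjusted p = 0.0282, adjusted p = 0.0779 from limma). It passed after quantile normalization (0.50, adjusted p = 0.0209 from limma), cyclic loess (0.50, 0.0191) and median centring (0.48, 0.0178). Of 10 other lipases and regulators, 2 were lower, again beside 23.8% of all genes. They were the lysosomal lipase gene Lipa (-0.43, adjusted p = 0.0169 from limma) and Ddhd2 (-0.35, adjusted p = 0.0398). Agpat2, Agpat3, Lipa and Ddhd2 did not pass after quantile normalization (adjusted p of 0.0808 to 0.397 from limma), whereas Faf2 did (-0.46, adjusted p = 0.0442). The latter scaling called 1 gene of each list higher, Gpat3 beside Vps13a (0.29, adjusted p = 0.0479 from limma) and Gpd1 (0.46, adjusted p = 0.0408), so that the direction of the calls in these lists depended on it. Quantile normalization called 9.98% of all genes higher and 10.4% lower. The medians of the 3 lists were -0.17, -0.17 and -0.079, beside -0.15 for all genes. After quantile normalization they were 0.074, -0.011 and 0.11, beside 0.0077, so that the sign of the first and last turned with the scaling.

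Plin2 and Hilpda are known targets of PPAR receptors and of hypoxia-inducible factors, and other targets of either were listed. Of 9 other PPAR target genes tested, 2 were lower, beside 23.8% of all genes. They were Cpt1a (-0.32, adjusted p = 0.0398 from limma) and Acadvl (-0.28, adjusted p = 0.0486), of mitochondrial fatty acid oxidation. Neither passed after quantile normalization (0.255 and 0.128), and the list median was -0.19, or 0.030 after quantile normalization. Angptl4, which encodes an inhibitor of lipoprotein lipase, was at 1.85 ± 0.355 FPKM in IgG libraries and 2.34 ± 0.310 in those given anti–VEGF-B (SD, n = 3 each), a log2 fold change of 0.23 that did not pass, and was named after its values were seen. It was the 1 gene of this list called after quantile normalization (0.47, adjusted p = 0.0446 from limma).

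The 14 tested hypoxia target genes had a median of 0.15 on the same scale, and 13 of them were above 0. They were highly expressed, with means from 90.2 FPKM (Mxi1) to 2677 (Pgk1). The highest gene of the other wider lists, Acaa2, averaged 37.1. As the shift between the groups varied with level, the median of all genes is not a matched comparison for this list. Whether level accounts for its place was not tested. The median was 0.098 after quantile normalization (3 below 0), 0.065 after cyclic loess (4 below 0), 0.35 after median centring and 0.22 after scaling to Actb (1 below 0 in each). On the deposited scale 4 of the 14 were called higher, beside 4.87% of all genes, namely Adm (0.74, adjusted p = 0.00511 from limma), Egln1 (0.53, adjusted p = 0.00557), Vegfa (0.45, adjusted p = 0.0115) and Ndrg1 (0.32, adjusted p = 0.0125), the last named beyond the rule to complete the count. They encode adrenomedullin, an oxygen-sensing prolyl hydroxylase, the growth factor VEGF-A and a stress-response protein. Egln3, another prolyl hydroxylase gene, was lower (-0.47, adjusted p = 0.0118 from limma). Adm was at 288, 295 and 310 FPKM with anti–VEGF-B and at 191, 149 and 198 with IgG, so the groups lay far apart. The glycolytic targets Pgk1 and Ldha, also named after their values were seen, overlapped between the groups. All 4 of the higher genes passed after each of the 4 scalings, and Egln3 in 3 of them (adjusted p = 0.0683 from limma after median centring). Median centring called 8 of the 14 higher and 0 lower, adding Mxi1, P4ha1, Pdk1 and Slc2a1. Hilpda, at 0.15, was near the median of this list on the deposited scale.

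**Figure D5:**
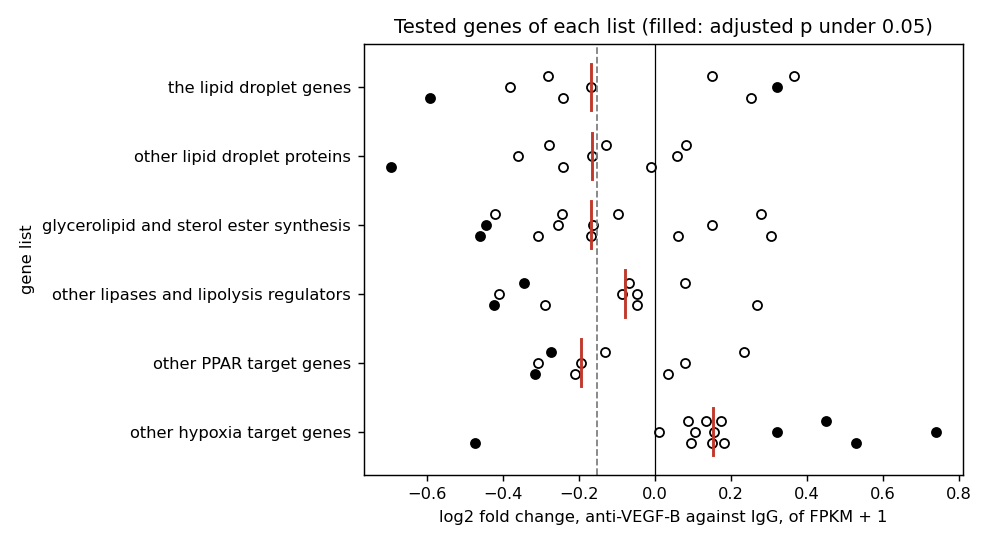
Anti–VEGF-B against IgG as log2 fold change of FPKM + 1 (x axis) of the tested genes of each list (y axis), filled where the adjusted p from limma was under 0.05, with a red bar at the median of the list and a dashed line at the median of all genes tested (-0.15). On the deposited scale the hypoxia targets had 13 of 14 genes above 0, and the other lists had medians between -0.19 and -0.079. The hypoxia targets all averaged 90.2 FPKM or more, and a shift that varies with level is not removed here.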

How the data were processed

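The authors aligned reads of stranded libraries (KAPA) to GRCm38 with hisat2, used StringTie and Ballgown for quantification, and gave 1 value per gene and library. The deposited values, made by the authors with these tools, were taken as FPKM because they are fractional, although the table is named as raw data, so no count model was run. Neither a normalization across libraries nor the choice of the 10995 genes is stated. Of genes under 0.3 FPKM, at most 0.935% shared a ratio in a pair of libraries, so reads were not recovered. All 6 columns were matched to samples by their labels.

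With R 4.3.3 and limma 3.58.1, genes averaging 1 FPKM or more (8816) were fitted as log2(FPKM + 1) over the 6 libraries with no covariate (empirical Bayes with trend, Benjamini-Hochberg over all genes, called at an adjusted p under 0.05). A fold change on this scale understates that of low genes. Mgll was taken from the fit of all genes. Ratios within libraries were compared by two-sided exact permutation tests. The fit was tested on simulated data. Alternatives changed the scaling, pseudocount, filter, moderation, call limits, replicate block and the libraries included.

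The members, lists and markers were chosen with earlier results of these data known. The genes named are the 10 members and, per list, up to 4 called genes with the lowest p, and others named are said to be so or are given with a list's count. Gene symbols were matched to RefSeq (GRCm38.p6) for all 10 members, and coordinates are those of the table.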

Additional observations from a re-analysis of the deposited data

How the results depend on the processing

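Of the 166 log2 fold changes of members recomputed under alternatives, 148 kept their direction and side of the threshold. The count of members called was 4 after quantile normalization and cyclic loess (3 of them higher), beside 20.3% of all genes in each. It was 5 after median centring (4 higher), beside 24.6%, and 1 by the unadjusted limits with a fold change, beside 12.7%. With no moderation of the variance it was 0 (0 higher and 0 lower), beside 0.136%. Without 1 library it ran from 1 to 3, with 0 to 2 higher and 1 to 2 lower, the lowest without anti–VEGF-B replicate 3. The share of all genes called was also lowest without that library, at 9.74%, and highest without IgG replicate 1, at 28%.

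Of all genes, 1674 were called after scaling to Actb (1309 lower), 1331 at a mean of at least 5 FPKM (989 lower), 12 with no moderation (6 higher, 6 lower) and 1121 by the unadjusted limits, beside 2528. Quantile normalization called 880 higher and 913 lower, median centring 1365 and 807, and cyclic loess 852 and 938, beside 429 and 2099. Leaving out 1 library gave 859 to 2467 calls, 164 to 396 higher and 695 to 2071 lower, the lowest without anti–VEGF-B replicate 3, followed by 1359 when IgG replicate 2 was left out and 1679 when anti–VEGF-B replicate 1 was. Quantile normalization called 2 other droplet proteins, 1 synthesis gene, 1 lipase and 1 PPAR target, beside 20.3% of all genes.

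The log2 fold change of Mgll was 0.049 with median centring, 0.019 with quantile normalization and 0.0079 with cyclic loess, and leaving out 1 library gave -0.40 to 0.15, the highest without IgG replicate 2. That of Soat1 was 0.032 after median centring, and the difference in log2 ratio of Abhd5 to Pnpla2 ran from -0.062 without anti–VEGF-B replicate 3 to 0.36 without replicate 2 of that group. The cause was not tested.

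Whether replicate numbers pair the libraries is not stated, and deviations from the group means cannot settle it. Those of same-numbered libraries correlated at -0.030, 0.11 and 0.089, and not every library correlated best with its own number. With the replicate block, 2578 genes (29.2% of those tested) and 3 members were called, 2 of the members lower, adding Pnpla2 (-0.38, adjusted p = 0.0479 from limma). With 3 libraries a group and no read counts, the precision rests on the spread between libraries, which limma moderated across genes. Small changes of low genes such as Mgll cannot be seen.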
